A study of Mus musculus with 8 samples.

Results

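The 10 genes described here are 8 genes for digestive enzymes that the exocrine pancreas secretes (Cela1, Cela2a, Cela3b, Ctrb1, Ctrc, Cpa1, Cpb1 and Cel) and 2 genes for transcription factors of the pancreatic acinar cell (Ptf1a and Rbpjl), out of 21851 protein-coding genes of the mouse annotation. They were followed gene by gene in ATAC-seq data of a tissue that is not pancreas, the spleen. The material was formalin-fixed, paraffin-embedded (FFPE) spleen of 8-week-old C57BL/6J mice, from which nuclei were isolated and treated with Tn5, the transposase that cuts accessible DNA and adds sequencing adapters. After tagmentation the nuclei were either reverse crosslinked to undo the formaldehyde bonds (+RV) or processed without that step (−RV), so both conditions came from the same fixed and tagmented nuclei. Bulk ATAC-seq gave 1 peak list for each of 2 +RV and 2 −RV libraries, and the replicates were technical. Single-cell ATAC-seq with split-and-pool barcodes gave 1 pooled set of fragments for each condition, in which the 2 libraries of a condition could not be told apart.

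Acinar cells fill most of the exocrine pancreas and make, store and release digestive enzymes, largely as inactive zymogens packed into granules. Their enzyme genes are switched on together by PTF1, a complex in which the basic helix-loop-helix protein PTF1A and a partner E protein sit on an E-box while RBPJL, or the more general factor RBPJ, sits on a nearby TTCCC-type site. PTF1A is also needed for the pancreas to form, and RBPJL replaces RBPJ in the complex as acinar cells mature. Neither the enzymes nor PTF1A is a known product of lymphoid cells, and the tail of the pancreas lies against the spleen in the mouse.

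These genes were chosen with earlier results of the same data in view: few of their promoters had held a bulk peak, their promoters had taken a smaller share of +RV than of −RV fragments, and a cluster of barcodes had carried them. Peaks at the starts, the +RV over −RV ratios and the joint occurrence in barcodes are therefore given as descriptions, with no test. The bulk lists held 47695 and 47799 peaks in the +RV libraries and 32224 and 32675 in the −RV libraries. The single-cell sets held 13703580 nuclear fragments in 18620 barcodes for +RV and 1592372 in 2406 barcodes for −RV. With 1 set for each condition, all intervals on fragments below are exact 95% intervals that cover counting error only. In either assay, fewer nuclei of a type and fewer fragments per nucleus of that type cannot be told apart. The tissue label was checked on 8 B-cell genes: a promoter peak was called in each +RV library for 8 and in each −RV library for 7 of them. Over all genes the shares were 53.6% in +RV and 47.7% in −RV. Of 8 T-cell genes 7 had one in +RV and 5 in −RV, of 8 erythroid genes 6 and 2, and of 8 macrophage genes 4 and 2.

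In bulk, the starts of the enzyme and regulator genes were nearly free of peaks. A peak overlapped the promoter window, 1000 bases before to 200 bases after an annotated start, for 2 of the 10 genes in +RV replicate 1 (Cpa1 and Rbpjl), for 0 in +RV replicate 2, for 1 in −RV replicate 1 (Rbpjl) and for 0 in −RV replicate 2. No gene of the 10 had one in both libraries of a condition, against 53.6% of all genes in +RV and 47.7% in −RV. Counting peaks with a summit within 20 kb of the gene body, 4 of the 10 genes had one in each +RV library and 3 in each −RV library, where 72.5% (+RV) and 66.6% (−RV) of all genes did. Within 50 kb all 10 genes had one in each library of either condition, against 79.7% of all genes in +RV and 74.7% in −RV. Within 20 kb, Ptf1a, Cela3b, Ctrb1 and Cpb1 had no peak in any of the 4 libraries. The neighbourhoods of the 10 genes, 474 kb in all, held 18 and 15 peaks in the +RV libraries, against 9 and 11 in the −RV libraries. The 2 conditions did not overlap, with means of 16.5 ± 2.12 in +RV and 10 ± 1.41 in −RV (SD, n = 2 each). The +RV mean was 1.65 times the −RV mean, and the whole lists were 1.47 times as long in +RV. An exact two-sided permutation test gave p = 0.3333, the smallest value that 2 against 2 libraries allow, so the design could not call this difference. Within 10 kb the counts were 10 and 6 in +RV and 5 and 7 in −RV, and with each list reduced to the same number of best-ranked peaks they were 12 and 10 in +RV and 9 and 11 in −RV, so under both the conditions overlapped (exact p = 0.6667 each).

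**Figure D1:**
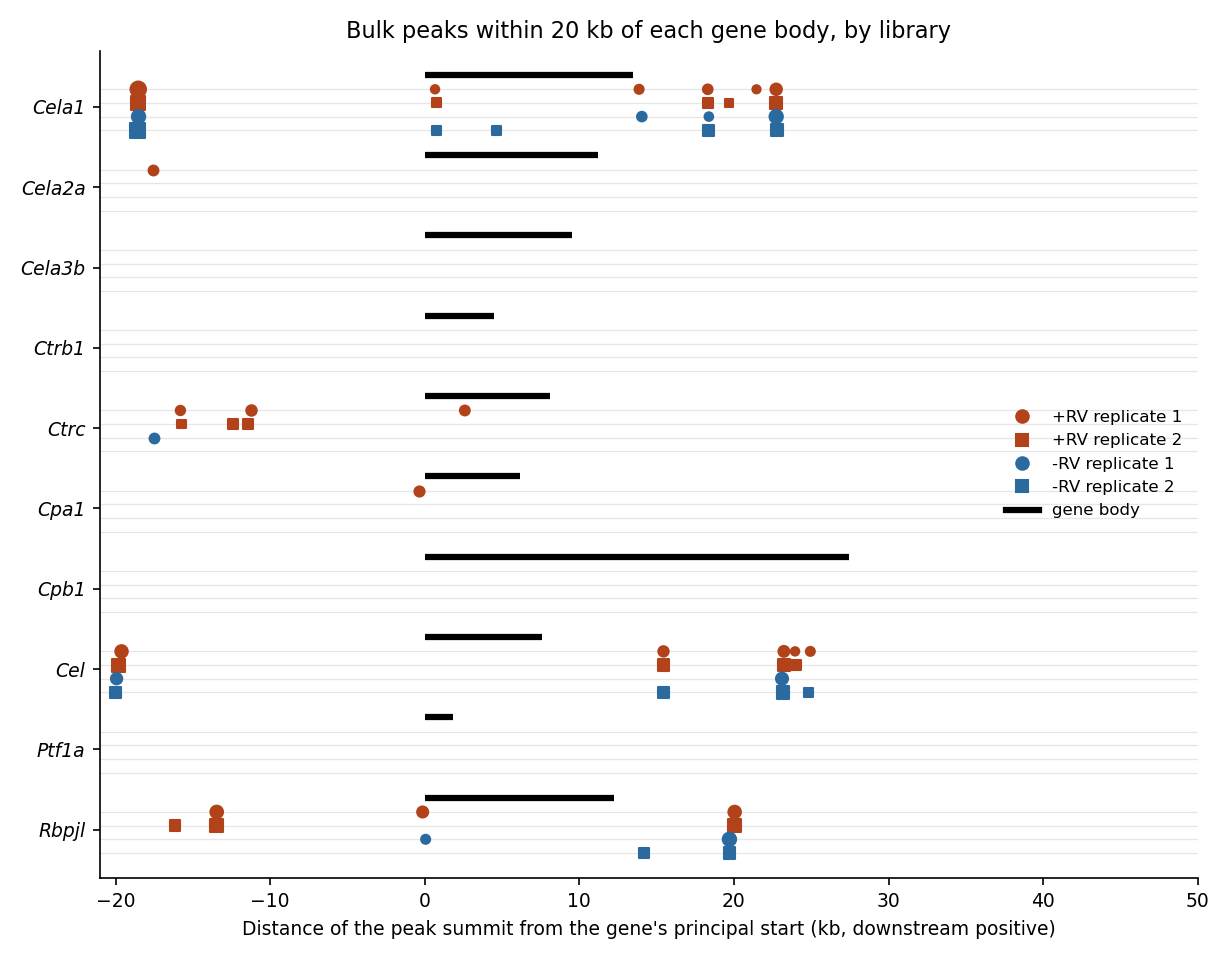
Peaks within 20 kb of each gene body in the 4 bulk libraries, by the distance of the summit from the gene's principal start (kb, downstream positive). Circles are replicate 1 and squares replicate 2, +RV in red above −RV in blue, the area of a mark grows with the peak's fold over local background, and black bars are gene bodies. Ptf1a, Cela3b, Ctrb1 and Cpb1 have no mark, and the marks at Cela1, Cel and Rbpjl that recur in all 4 libraries lie outside those gene bodies.

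Rbpjl, which encodes the acinar partner of PTF1A, had the promoter peak with the highest fold of the 3 called. Its +RV replicate 1 peak (chr2:164402936-164403170, mm10, 235 bases) had its summit at position -135 from the start, where an intron of the overlapping gene Matn4 is also annotated, a fold of 4.62 over the local background and a −log10 q of 8.55. The −RV replicate 1 peak (chr2:164403143-164403342, 200 bases) was weaker, with its summit 58 bases after the start, in an exon, a fold of 3.11 and a −log10 q of 3.03. The second replicate of each condition had no peak there, so the start was called in 2 of 4 libraries, and the 2 calls shared only 28 bases. They are printed here because they are the only peaks at the start of a regulator gene. The sequences run 5′ to 3′ along the gene and come from the RefSeq genome of build GRCm38.p6, the build of mm10. Capitals mark CACCTG, an E-box, and TTTCCC or TTCCCA, cores read by RBPJ and RBPJL, on either strand.
Rbpjl, +RV replicate 1 peak: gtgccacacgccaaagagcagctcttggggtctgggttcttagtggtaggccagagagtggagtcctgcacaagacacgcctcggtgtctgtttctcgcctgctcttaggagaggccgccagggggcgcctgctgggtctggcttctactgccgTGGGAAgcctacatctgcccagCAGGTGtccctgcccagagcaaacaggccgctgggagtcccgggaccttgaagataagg
Rbpjl, −RV replicate 1 peak: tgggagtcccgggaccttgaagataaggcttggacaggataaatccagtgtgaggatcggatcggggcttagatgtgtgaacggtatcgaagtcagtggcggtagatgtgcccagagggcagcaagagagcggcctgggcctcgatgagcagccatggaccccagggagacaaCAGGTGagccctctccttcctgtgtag

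Around Rbpjl the peaks that recurred lay farther away. An intergenic peak about 20 kb downstream of the start was called in all 4 libraries, with folds of 5.97 and 6.42 in +RV and 6.82 and 5.08 in −RV. A peak in Matn4, the neighbouring gene for the matrix protein matrilin-4, was called in both +RV libraries only, with folds of 6.10 and 6.18. Ptf1a itself had no peak within 20 kb in any library.

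Among the enzymes, Cpa1 (carboxypeptidase A1, which trims amino acids from the ends of peptides) had the only promoter peak. It was called in +RV replicate 1 alone (chr6:30638759-30638958), with its summit at position -364 from the start, a fold of 3.88 and a −log10 q of 5.75. The stretch is shown because it is the only enzyme promoter that reached a call, and it holds 1 CACCTG and neither RBPJ core.
Cpa1, +RV replicate 1 peak: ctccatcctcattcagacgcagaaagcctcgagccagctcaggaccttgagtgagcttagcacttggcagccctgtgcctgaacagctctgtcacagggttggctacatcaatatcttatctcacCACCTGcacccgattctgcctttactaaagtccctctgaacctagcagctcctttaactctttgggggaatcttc

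Cela1, a pancreatic elastase, was the only gene of the 10 with a peak inside its own body in more than 1 library. The summit lay 665 bases after the start in +RV replicate 1, 777 bases in +RV replicate 2 and 774 bases in −RV replicate 2, with folds of 2.66, 3.04 and 3.31. The peaks were shallow in all 3 libraries, with −log10 q values of 4.37, 5.46 and 6.13, and −RV replicate 1 had none there. A second peak in the body, 4646 bases after the start, was called in −RV replicate 2 alone (fold 3.23, −log10 q 6.90). The 294 bases that the 3 peaks share (chr15:100687079-100687372), with the summits in an exon or intron of the gene, are shown as the most repeatable bulk signal inside an enzyme gene; they hold 1 CACCTG.
Cela1, stretch shared by 3 peaks: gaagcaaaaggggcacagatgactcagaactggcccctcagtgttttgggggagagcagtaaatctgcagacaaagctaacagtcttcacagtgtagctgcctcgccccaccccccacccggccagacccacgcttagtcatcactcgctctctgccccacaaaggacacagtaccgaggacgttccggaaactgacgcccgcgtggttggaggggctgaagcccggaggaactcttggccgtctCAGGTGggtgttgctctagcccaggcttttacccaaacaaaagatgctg

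The stronger peaks near Cela1 belonged to its neighbours. A peak in an intron of Galnt6, a gene for an enzyme that starts O-linked sugar chains, had folds of 9.18 and 8.13 in +RV and 6.80 and 8.84 in −RV. A peak at the promoter of Bin2, a membrane-bending protein of blood cells, had folds of 3.55 and 3.82 in +RV and 2.82 and 4.58 in −RV. A peak in a Bin2 intron had folds of 4.97 and 5.11 in +RV and 6.77 and 5.35 in −RV. All 3 recurred in all 4 libraries.

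Cel, the bile salt-activated lipase, had no peak in its body or at its start. Its recurring neighbours were the promoter of Gtf3c5, a subunit of an RNA polymerase III factor, with folds of 5.92 and 6.50 in +RV and 4.84 and 4.85 in −RV, and introns of Ralgds, an exchange factor for Ral proteins. Ctrc, a chymotrypsin that also cuts trypsinogen, had 1 peak inside its body, in +RV replicate 1 alone (fold 3.70). That same peak was the only one within 20 kb of its neighbour on chromosome 4, the elastase gene Cela2a, which was thus without a peak of its own. Other peaks near Ctrc lay in or beside Efhd2: 2 recurred in both +RV libraries, 1 was called in +RV replicate 2 alone and 1 in −RV replicate 1 alone.

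Other acinar genes gave the same bulk picture. A promoter peak in both libraries was found for 0 of 12 other acinar enzyme genes in +RV and 0 of 12 in −RV, and for 0 of 9 and 0 of 9 genes of zymogen granules and secretion. Of 8 other transcription factor genes used by acinar cells, several of which also work in other organs, 3 had one in each +RV library and 2 in each −RV library. Of 8 genes that every cell uses, all 8 had one in both libraries of either condition. The near absence was not particular to acinar genes. Of 8 hepatocyte genes 0 had one in +RV and 0 in −RV, and of 12 islet genes 1 and 0. Of 8 duct genes 2 had one in +RV and 2 in −RV, and of 8 neuronal genes 3 and 1. Over all genes the shares were 53.6% in +RV and 47.7% in −RV.

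Promoter sequences were found in RefSeq (GRCm38.p6) for 9 of the 10 genes, 250 bases before to 50 bases after the RefSeq start; Ctrc was not matched. CACCTG was present on either strand in 6 of the 9, against 20.3% of 32544 promoters of that length, and TTTCCC or TTCCCA, which overlap each other where TTTCCCA occurs, in 7 of the 9, against 39.6%. Both were present in Cela1, Cela2a, Cel and Rbpjl, 4 of the 9, against 7.96% of all promoters. The looser E-box CANNTG was in 8 of the 9, against 72.3%. A match is a run of letters and not a measured site. The 3 enzyme promoters with both are shown since none of them held a peak in any bulk library. In Cela1 the pair lies close together, with CACCTG beginning at position -109 and TTTCCC at position -99 from the start; Cel has 4 copies of CACCTG.
Cela1 promoter (chr15:100687871-100688170, minus strand): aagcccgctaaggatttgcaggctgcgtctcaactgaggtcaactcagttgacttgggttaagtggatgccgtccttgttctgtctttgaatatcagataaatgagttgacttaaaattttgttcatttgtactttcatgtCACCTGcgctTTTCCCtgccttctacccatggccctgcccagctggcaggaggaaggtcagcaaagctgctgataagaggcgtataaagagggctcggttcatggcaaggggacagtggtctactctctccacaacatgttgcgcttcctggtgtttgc
Cela2a promoter (chr4:141825956-141826255, minus strand): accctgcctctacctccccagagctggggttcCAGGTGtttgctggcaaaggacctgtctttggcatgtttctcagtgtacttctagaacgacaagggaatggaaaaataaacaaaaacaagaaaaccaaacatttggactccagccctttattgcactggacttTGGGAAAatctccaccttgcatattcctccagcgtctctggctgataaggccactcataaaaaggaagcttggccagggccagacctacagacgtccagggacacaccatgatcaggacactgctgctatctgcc
Cel promoter (chr2:28563354-28563653, minus strand): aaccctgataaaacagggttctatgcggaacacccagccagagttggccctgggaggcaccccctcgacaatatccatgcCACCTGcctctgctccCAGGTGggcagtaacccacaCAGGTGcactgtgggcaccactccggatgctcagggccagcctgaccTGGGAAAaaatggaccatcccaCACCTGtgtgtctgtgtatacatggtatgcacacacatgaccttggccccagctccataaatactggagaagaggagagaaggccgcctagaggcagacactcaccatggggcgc

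Single-cell fragments covered every one of the 10 genes in both sets, including those without any bulk peak. Levels are given as CPM, the fragments with their midpoint in a window per 1000000 nuclear fragments of the set. Over the gene window, from 5000 bases before the gene to 500 bases past its end, the 10 genes together had 2254 fragments or 164 CPM in +RV (95% interval 158 to 171) and 425 fragments or 267 CPM in −RV (242 to 294). The +RV level was 0.616 times the −RV level (0.555 to 0.685). Over all genes with at least 10 −RV fragments the median ratio was 1.02, and over the 9 of the 10 genes that passed this minimum it was 0.674. A ratio at or below 1 over 1.5 was found for 4 of these 9 genes and for 3.56% of all genes with that minimum.

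The 4 genes were Cela2a, Ctrb1, Cela1 and Cpb1, all enzymes. Cela2a had 294 fragments (21.5 CPM) in +RV and 75 (47.1 CPM) in −RV, at a ratio of 0.456 (0.352 to 0.595). Ctrb1, a chymotrypsinogen, had 140 (10.2 CPM) in +RV and 32 (20.1 CPM) in −RV, at a ratio of 0.508 (0.344 to 0.772). For Cela1 there were 776 fragments (56.6 CPM) in +RV and 156 (98.0 CPM) in −RV, at a ratio of 0.578 (0.486 to 0.691). These 3 intervals lay below 1, as did that of Cpb1, the carboxypeptidase that removes basic amino acids, with 303 fragments (22.1 CPM) in +RV and 58 (36.4 CPM) in −RV and a ratio of 0.607 (0.457 to 0.819).

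For the other 4 enzymes and both regulators the interval of the ratio included 1. Cel was at 10.6 CPM in +RV and 15.7 CPM in −RV (ratio 0.674, 0.439 to 1.08). Ctrc was at 7.44 CPM in +RV and 10.05 CPM in −RV (0.741, 0.435 to 1.34), and Cpa1 at 12.8 CPM in +RV and 15.1 CPM in −RV (0.852, 0.554 to 1.37). Cela3b, an elastase-family protease, had nearly equal levels, 9.34 CPM in +RV and 10.05 CPM in −RV (0.930, 0.551 to 1.68). The regulators were also close to even, with Rbpjl at 10.6 CPM in +RV and 11.3 CPM in −RV (0.936, 0.572 to 1.62) and Ptf1a at 3.28 CPM in +RV and 3.14 CPM in −RV, on 45 and 5 fragments (1.05, 0.417 to 3.38). Summed, the 8 enzymes had a ratio of 0.597 (0.536 to 0.666) and the 2 regulators one of 0.960 (0.621 to 1.55). Whether these 2 ratios differ was not tested.

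**Figure D2:**
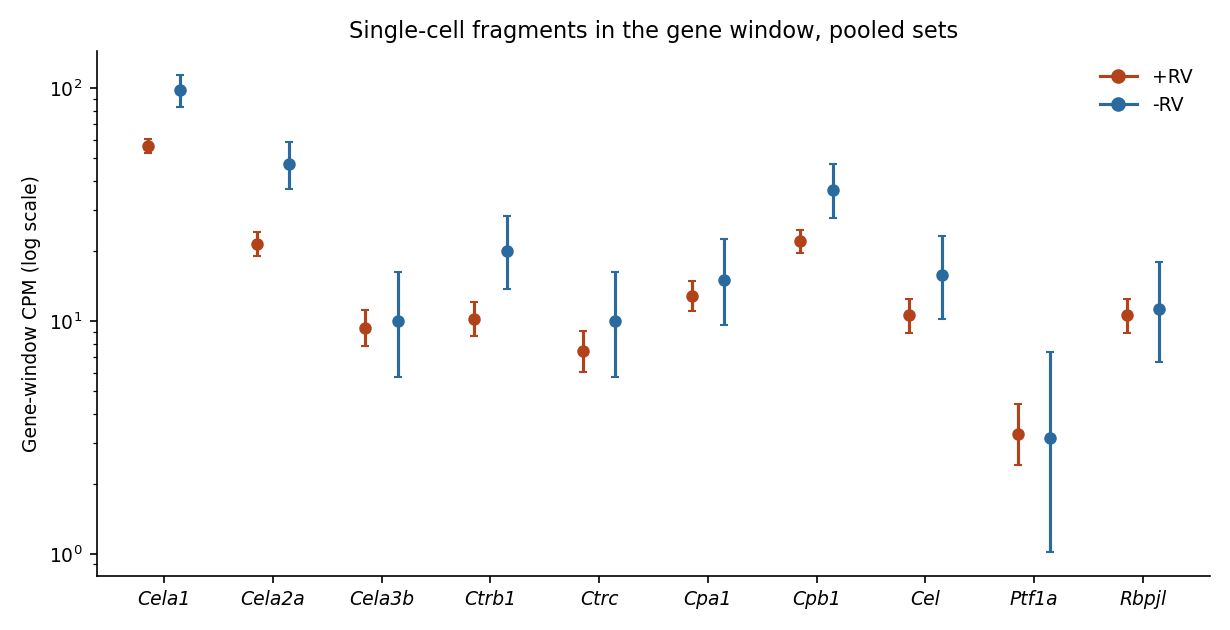
Gene-window level of each gene in the pooled single-cell sets (CPM, log axis), +RV in red left of −RV in blue; points are levels and bars exact 95% Poisson intervals of the count. Cela1 is highest in both sets (56.6 CPM in +RV, 98.0 CPM in −RV) and Ptf1a lowest (3.28 CPM in +RV, 3.14 CPM in −RV).

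Per kb of gene window, Cela1 stood above the rest in both sets, at 2.98 CPM per kb in +RV (2.77 to 3.20) and 5.16 in −RV (4.38 to 6.03). In +RV it was followed by Cela2a at 1.28 (1.14 to 1.44), Cpa1 at 1.10 (0.946 to 1.28) and Ctrb1 at 1.02 (0.860 to 1.21), 3 neighbours in the order whose intervals overlap. Cel came next at 0.810, then Cpb1 at 0.671, Cela3b at 0.621, Rbpjl at 0.596, Ctrc at 0.546 and Ptf1a at 0.447. No neighbours among these last 6 genes had intervals that parted. In −RV the order at the top was Cela1, then Cela2a at 2.82 (2.22 to 3.54) and Ctrb1 at 2.01 (1.38 to 2.84), and the lowest was again Ptf1a at 0.428 (0.139 to 0.998).

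At the starts, the median promoter level of the 10 genes was 1.71 CPM in +RV, against 3.21 CPM over all genes, and 3.14 CPM in −RV, against 2.51 CPM over all genes. In −RV, 1 fragment is 0.628 CPM, about the gap between these −RV medians. In the promoter windows, over all annotated starts, the 10 genes had 400 fragments or 29.2 CPM in +RV (26.4 to 32.2) and 86 fragments or 54.0 CPM in −RV (43.2 to 66.7), which gave a ratio of 0.540 (0.427 to 0.690). On the log2(CPM + 1) scale, which draws low genes towards 0, the median difference over the 10 genes was -0.76. Cela1 alone gave 192 of the +RV and 42 of the −RV fragments, because 4 further starts are annotated 5.96 to 9.06 kb inside the gene. Without Cela1 the sum was 15.2 CPM in +RV and 27.6 CPM in −RV. In barcodes with at least 1000 fragments (3028 in +RV and 257 in −RV) the median log2 difference was only -0.12, on 170 promoter fragments in +RV and 18 in −RV. The 2 regulators had 53 fragments (3.87 CPM) at their starts in +RV and 3 (1.88 CPM) in −RV, and the ratio of 2.05 had an interval of 0.665 to 10.3.

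Fragment density at a start was compared with that 5 to 20 kb away on both sides. In +RV, 5 of the 10 genes had at least 2 times the density at the principal start, against 62.7% of all genes with at least 20 fragments in those flanks. Ptf1a had 24.1 fragments per kb at its start and 3.73 in the flanks, 6.47 times (4.14 to 9.80), although no bulk library had a peak there. Cpa1 had 33.3 and 5.50, 6.06 times (4.18 to 8.60), and Ctrb1 23.3 and 6.27, 3.72 times (2.41 to 5.55). These were the clearest starts of the set, but the median over all genes with that minimum was 3.89 times. Ptf1a was at percentile 59.6 of those genes, Cpa1 at 58.4 and Ctrb1 at 49.2. Rbpjl (2.20 times, 1.39 to 3.35) and Cela3b (2.06 times, 1.20 to 3.34) were just past the limit, with Cpb1 just below it (1.89 times, 1.06 to 3.13). Cela2a, Cel, Cela1 and Ctrc were between 0.797 and 1.34 times, with intervals that included 1. For a gene longer than 5 kb these flanks hold part of its own body, and they can hold peaks of neighbours. The Cela1 body held 47.3 fragments per kb in +RV, against 35.0 at its start. At Cel the 1-kb bin with the Gtf3c5 peak gave 129 of the 432 flank fragments. A ratio near 1 therefore does not show that a start was not raised. In −RV the counts were 1 to 11 fragments per start, and only Ctrb1, Cpa1, Cel and Cela3b had an interval above 1, Ctrb1 at 8.03 times (3.33 to 17.5) and Cpa1 at 8.33 times (3.45 to 18.2).

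**Figure D3:**
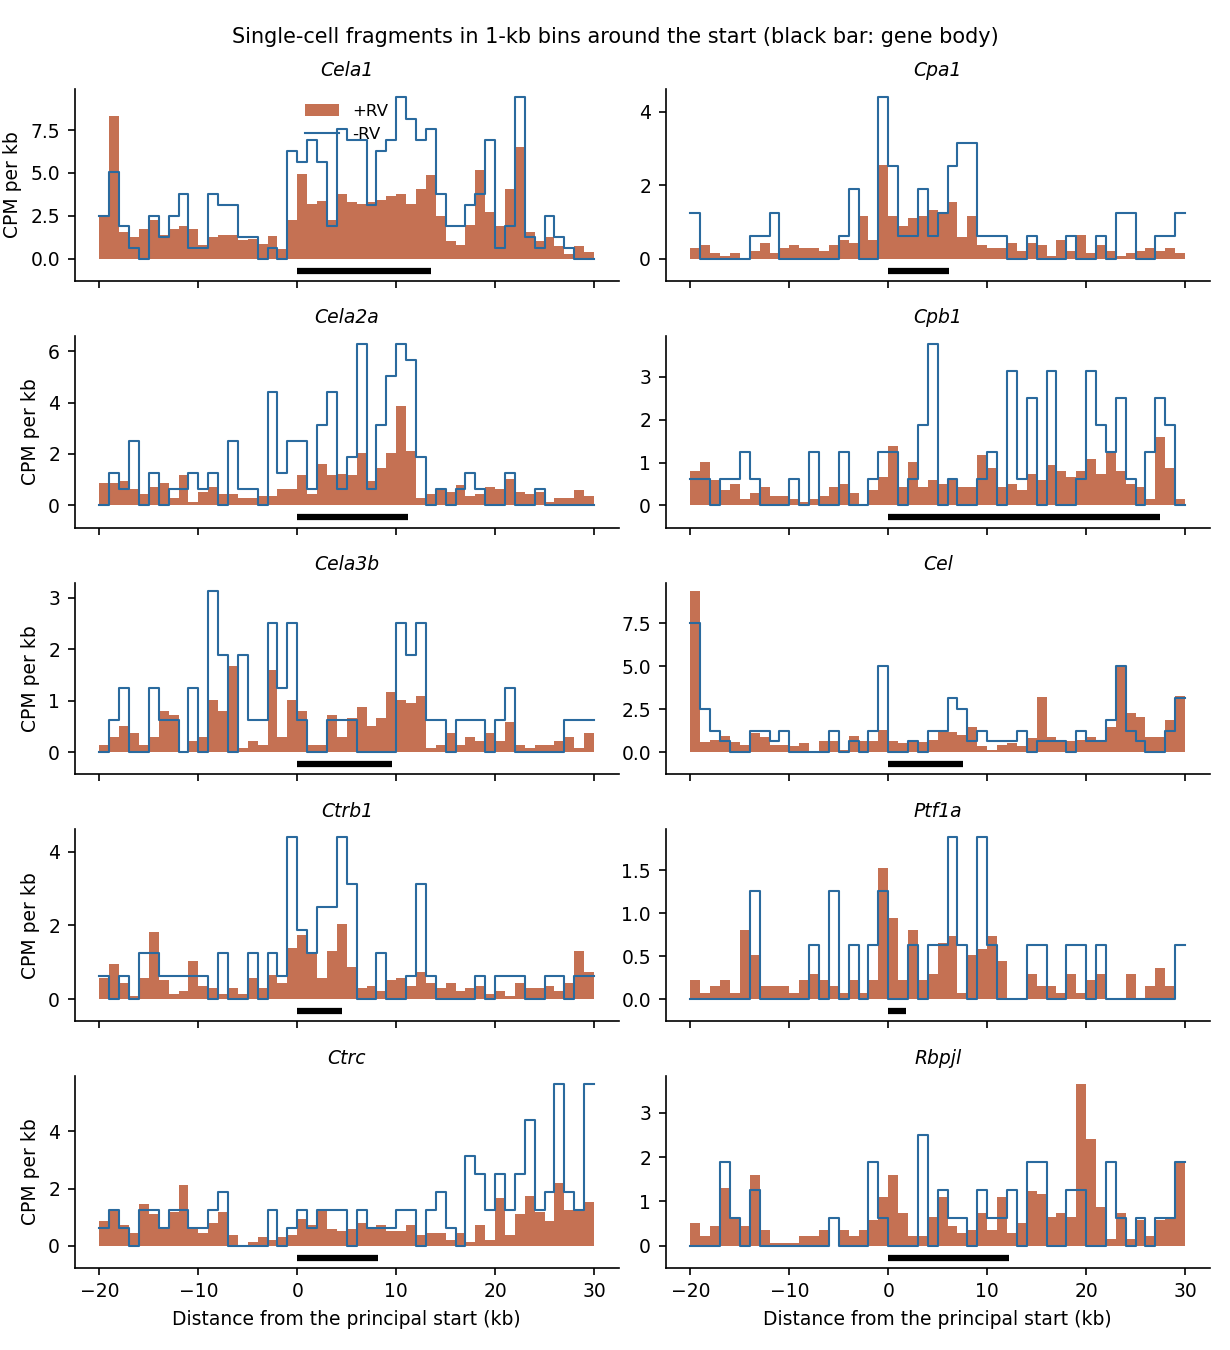
Single-cell fragments in 1-kb bins from 20 kb before to 30 kb after each principal start (CPM per kb), +RV as red bars and −RV as a blue line; the black bar is the gene body and the vertical scale differs by gene. The bins of the Cela1 body hold 2.26 to 4.96 CPM per kb in +RV, and the highest +RV bin of Cpa1 and of Ptf1a is the one just before the start.

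At several enzyme genes the fragments were denser along the gene body than outside it. The following comparison of body with flank was added after the profiles had been seen. In +RV, Cpa1 had 15.5 fragments per kb in its body and 3.67 in the flanks 5 to 20 kb outside it, 4.22 times (3.17 to 5.60). Ctrb1 had 17.6 and 5.83, 3.01 times (2.28 to 3.95), and Cela2a 21.6 and 8.27, 2.61 times (2.18 to 3.13). Cpb1 followed with 2.01 times (1.64 to 2.48) and Cela1 with 1.90 times (1.71 to 2.12), for which the flanks hold the Galnt6 peak and the peak in the Bin2 intron. A body at least 2 times its flanks was found for 4 of the 9 genes with at least 20 body fragments, against 24% of all such genes, whose median was 1.19 times. The body was not denser than the flanks for Ctrc (0.851 times, 0.661 to 1.08), Cel (0.612 times, 0.479 to 0.772) and Rbpjl (0.888 times, 0.705 to 1.11). Their flanks hold signal of other genes, at Cel the Gtf3c5 and Ralgds peaks, at Rbpjl the Matn4 peak and the intergenic peak of all 4 libraries, and at Ctrc the body of Cela2a, whose own flanks in turn hold that of Ctrc. Cela3b was at 1.56 times (1.17 to 2.08) in +RV and at 0.434 times on 4 body fragments in −RV. In −RV the same 5 enzymes had the densest bodies, with Cela2a at 5.09 times, Ctrb1 at 4.73, Cpa1 at 4.18, Cpb1 at 3.09 and Cela1 at 2.98. Ptf1a had 0 body fragments in −RV, for which the limit used is a one-sided one of 3 fragments.

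The fragments of different acinar genes tended to lie in the same barcodes. Fragments at 2 or more of the 10 gene windows were found in 306 of 18620 barcodes in +RV (1.64%, 1.47 to 1.84) and in 77 of 2406 in −RV (3.20%, 2.53 to 3.98). The most genes in 1 barcode was 8 in +RV and 5 in −RV. These barcodes were deeper than the others, with a median of 869 nuclear fragments against 620 in +RV and 708 against 582 in −RV. After each barcode was thinned to 500 nuclear fragments, which left out 2652 +RV and 457 −RV barcodes, the shares were 0.939% in +RV (150 of 15968) and 2.46% in −RV (48 of 1949). The windows of the 10 genes cover 157 kb. Among lists of 8 genes with windows of like size, 2 or more were hit in 2.39% of +RV and 1.54% of −RV barcodes for genes that every cell uses (163 kb), in 0.843% of +RV and 0.914% of −RV barcodes for erythroid genes (122 kb) and in 0.0161% of +RV and 0.125% of −RV barcodes for hepatocyte genes (133 kb). The share for the 10 genes thus lay within the range of these lists in +RV and above it in −RV. The barcodes with 2 or more of the genes held 46.7% of the fragments at the 10 genes in +RV and 56.0% in −RV, on 2.63% and 3.99% of the nuclear fragments, while 1113 barcodes in +RV and 166 in −RV had exactly 1 of the genes.

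To read each gene without its own part in the choice, barcodes were selected by 2 or more of the other 9 genes. All 10 genes had a higher level in the selected than in the other barcodes, in both sets. In +RV, Cela1 was at 639 CPM in 204 selected barcodes and 45.3 CPM in the others, 14.1 times (11.8 to 16.8). Cela2a had the widest gap, 398 against 12.8 CPM, 31.2 times (24.5 to 39.6). Among the other enzymes the ratio was 26.5 for Cela3b, 22.3 for Cel, 19.1 for Ctrc, 18.3 for Ctrb1, 14.2 for Cpa1 and 11.7 for Cpb1, each with an interval above 8. Ptf1a, with 15 fragments in the selected barcodes and 30 in the others, was at 42.8 against 2.25 CPM, 19.1 times (9.53 to 36.5). Rbpjl was the least tied to the others, at 53.0 against 9.50 CPM, 5.58 times (3.20 to 9.17). As a share, 48.0% of the selected barcodes had a Cela1 fragment (41.0 to 55.1) against 2.84% of the others (2.60 to 3.09), and 4.73% had a Ptf1a fragment (2.61 to 7.81) against 0.158% (0.106 to 0.227).

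In −RV the selected barcodes were 43 to 76 for each gene and the intervals were wide. Cel was 24.8 times higher (10.4 to 59.0), Cpa1 18.4 times (7.31 to 44.5), Cela2a 10.9 times (6.09 to 18.6) and Cela1 9.67 times (6.23 to 14.6). Ptf1a and Rbpjl had 2 fragments each in the selected barcodes, with ratios of 16.3 (1.36 to 142) and 3.07 (0.343 to 13.1), so the −RV interval of Rbpjl included 1. Both Ptf1a fragments lay in 1 barcode, so its −RV ratio rests on that barcode. The interval takes fragments as independent and makes no allowance for this. The median ratio over the 10 genes was 18.7 in +RV and 9.21 in −RV. Levels at least 5 times higher were found for 9 of 9 genes with at least 50 fragments in +RV and for 8 of 9 with at least 10 in −RV. Among all other genes with these minimums, compared between barcodes with 2 or more of the 10 genes and the rest, 0.959% were in +RV and 2.11% in −RV.

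**Figure D4:**
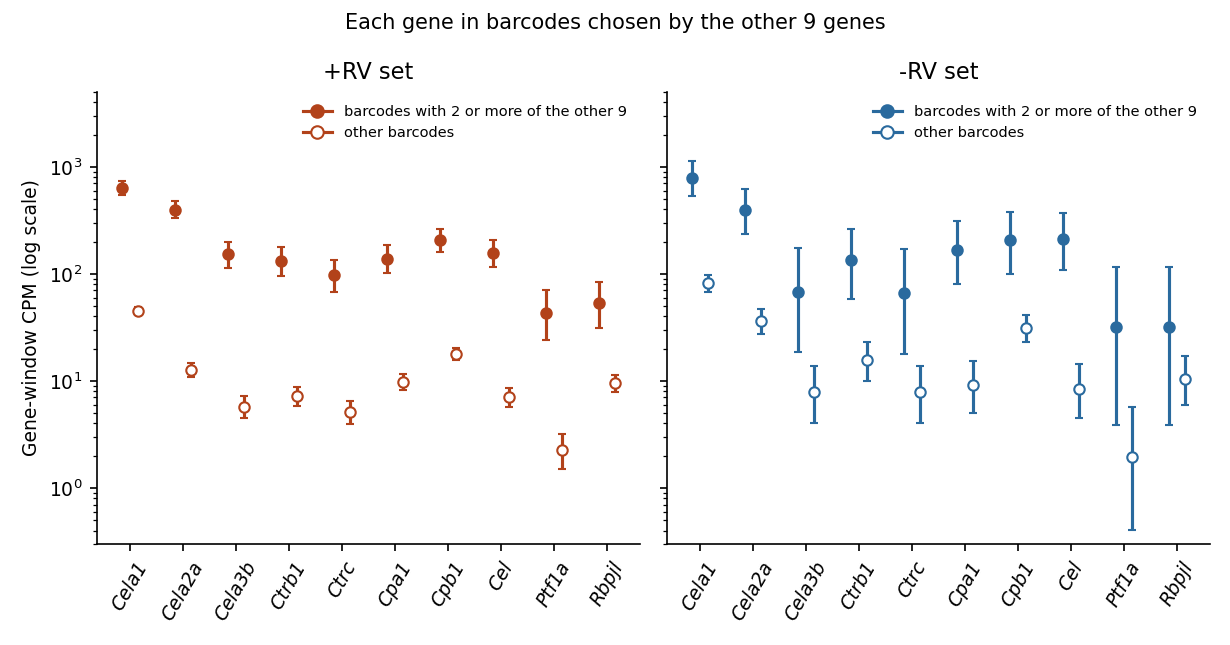
Level of each gene (gene-window CPM, log axis) in barcodes with fragments at 2 or more of the other 9 genes (filled, left of each pair) and in all other barcodes (open), in the +RV set (left panel) and the −RV set (right panel). Bars are exact 95% Poisson intervals of the count; the pairs part for all 10 genes in +RV, while the intervals of the pairs of Ptf1a and Rbpjl overlap in −RV.

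The barcodes with 2 or more of the 10 genes were also rich in acinar genes that had no part in choosing them. In +RV the 12 other acinar enzyme genes were at 895 CPM there and 75.4 CPM in the remaining barcodes, 11.9 times (10.4 to 13.5), and in −RV at 1182 and 114 CPM, 10.4 times (7.81 to 13.7). Of the 9 of these with enough fragments in +RV, 8 were at least 5 times higher, with a median of 16.0 times, against 0.959% of all genes with that minimum. The exception was Ctrl, a chymotrypsin-like protease, at 49.9 against 17.4 CPM. Pnliprp2, a lipase of the pancreas, was at 80.3 against 5.02 CPM and Pla2g1b, a secreted phospholipase, at 47.1 against 8.02 CPM. The 9 genes of zymogen granules and secretion were 10.2 times higher in +RV (8.73 to 11.9) and 10.8 times in −RV (7.69 to 14.9).

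Of the 8 other acinar transcription factors, 6 were at least 5 times higher in +RV, with a median of 5.74 times. They included Bhlha15, also called Mist1, which organises the secretory cell (63.7 against 9.14 CPM), and Gata6, an endoderm factor (74.8 against 13.9 CPM). Rbpj, which every Notch-responding cell uses and for which RBPJL stands in, was nearly even at 96.9 against 83.9 CPM.

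In +RV, genes of other cell types of the pancreas were weakly raised, and those of B cells, T cells and erythroid cells were lower. Islet genes were 1.88 times higher in these +RV barcodes (1.31 to 2.63), with 5 of 12 genes at 0 there and Isl1, an endocrine transcription factor, at 19.4 against 3.82 CPM. Duct genes were 2.34 times higher (1.84 to 2.93), with Muc1, a surface mucin, at 55.4 against 17.6 CPM. B-cell genes were at 0.484 times the level of the other +RV barcodes (0.384 to 0.601), T-cell genes at 0.590 times (0.456 to 0.750) and erythroid genes at 0.441 times (0.269 to 0.683). The B-cell marker Ms4a1 was at 2.77 against 22.8 CPM, the lowest ratio of its list, on 1 fragment in these barcodes. The list as a whole still stood at 227 CPM on 82 fragments, 33 of them at Ebf1. Genes that every cell uses were even, at 1.08 times (0.903 to 1.29). Hepatocyte genes were 1.95 times higher on 22 fragments (1.21 to 2.98), led by Ttr, which islets also express, at 27.7 against 3.22 CPM. Macrophage genes were at 1.18 times in +RV (0.890 to 1.54) and 0.494 times in −RV (0.133 to 1.29). Within that list C1qa, a complement gene singled out after its values were seen, was at 38.8 against 2.32 CPM in +RV, with 14 of the list's 56 fragments in these barcodes, while the median gene tested was at 0.711 times. Neuronal genes were at 1.22 times in +RV (1.04 to 1.42) and 1.49 times in −RV (1.05 to 2.05). In −RV, duct genes were likewise higher, at 3.33 times (2.03 to 5.22). B-cell genes were lower there, at 0.238 times (0.0870 to 0.521), as were erythroid genes, at 0.273 times (0.0559 to 0.806). The −RV intervals included 1 for islet genes (1.51 times, 0.539 to 3.40), T-cell genes (0.672 times, 0.345 to 1.19) and hepatocyte genes (1.61 times, 0.424 to 4.33).

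Over 17307 genes with at least 50 +RV fragments and no overlap with the 10 windows, the 10 whose level differed most between these barcodes and the rest were Pnlip, Cckar, Try5, Try4, 2210010C04Rik, Klk1b5, Gp2, Spink1, Prss2 and Klk1. Their ratios ran from 18.5 to 33.3, where the median gene had 0.940. Most are products of acinar cells: Pnlip is the main pancreatic lipase, Try4, Try5 and Prss2 are trypsinogens, Gp2 coats the zymogen granule membrane and Spink1 inhibits trypsin. Cckar is the receptor through which cholecystokinin triggers enzyme release. In the −RV set, which did not choose them, their ratios ran from 3.44 for Klk1, on 1 fragment, to 24.1 for Klk1b5, on 3 fragments, and Pnlip was at 22.2 (9.27 to 52.9). The trypsinogen and kallikrein genes have close copies between which reads can be split, so their single values are uncertain.

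Each barcode carries 1 of 20 Tn5 indices, added before the nuclei were mixed and split between the conditions, which gives a spread within each set. This split was added after the data had been seen. Summed over the 10 gene windows, the level by index was 109 to 228 CPM in +RV (median 159) and 135 to 660 CPM in −RV (median 263). It was lower in +RV than in −RV for 18 of the 20 indices, although the ranges overlapped. The highest −RV index rested on 13 fragments. The ratio by index had a median of 0.635 and ran from 0.293 to 1.70. The indices share the split of the nuclei and the pooled set of each condition, so they are no replicates of it.

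**Figure D5:**
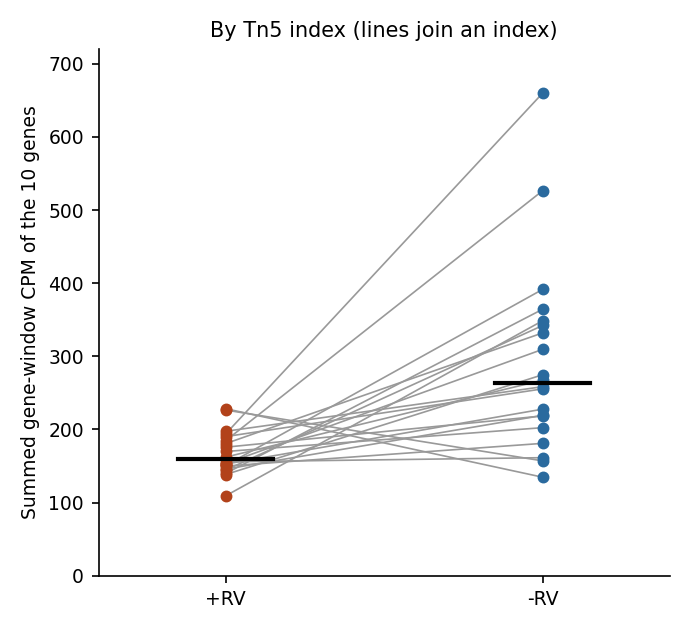
Summed gene-window level of the 10 genes (CPM) for each of the 20 Tn5 indices, +RV (red) left of −RV (blue); a line joins the 2 values of an index and black bars are medians. The level is lower in +RV for 18 of 20 indices, with medians of 159 CPM in +RV and 263 CPM in −RV.

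Fragments at the 10 genes were longer than fragments in general. The median length was 89 bases at the 10 genes and 76 bases over all nuclear fragments in +RV, and 75 and 62 bases in −RV. Fragments longer than the DNA on a nucleosome core made up 25.4% of those at the 10 genes and 20.4% of all in +RV, and 6.82% and 2.29% in −RV. Reads had been cut to a fixed length by the authors before alignment, and the part of that step in these lengths was not tested. Repeats were rare: 2237 of the 2254 +RV and 424 of the 425 −RV fragments had distinct positions. Of the 2 barcodes found in both sets, 0 had fragments at 2 or more of the 10 genes in +RV and 1 did in −RV.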

How the data were processed

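The authors deposited 1 peak list per bulk library and 1 fragment list per single-cell condition, on mm10. Each deposited peak has a score, a ratio (fold over the local background), −log10 p and −log10 q values and a summit, each relative to its own library; the layout is that of MACS2, and the study's methods describe the removal of blacklisted regions. Picard 1.119, SEACR 1.3, Bowtie2 2.4 and SAMtools 1.15 stand in the submitters' processing notes, and BWA and MACS2 in the study's methods; the tools behind the bulk lists were not settled from these sources. The fragment lists hold other values, positions and barcodes; they were deposited as unique fragments of barcodes selected on fragment number and share at starts. The 10 genes and the gene lists were chosen with earlier results of these data known.

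Starts and bodies came from the basic GENCODE M21 annotation (protein-coding transcripts, 21851 genes). Fragments were counted by midpoint and scaled to 1000000 nuclear fragments (CPM), with a pseudocount of 1 CPM for log2 values. Intervals are exact Poisson, binomial or conditional ones. Each fragment set was given its condition by an abbreviation it shares with the bulk lists, and both libraries of a condition counted as 1 sample. All 10 genes were named, of each other list at most the 3 with the highest +RV promoter CPM, neighbours whose promoter held a peak within 20 kb, and the 10 genes with the highest ratio between barcodes; Galnt6, Ralgds, Matn4 and Efhd2 were named after their peaks were seen. Counting was tested on simulated data with Python 3.11.15, numpy 2.4.6 and scipy 1.17.1. Alternatives covered windows, counting, depth, distance, peak strength and left-out replicates.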

Additional observations from a re-analysis of the deposited data

How the results depend on the processing

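Of 105 alternatives computed, 78 were labelled the same, 27 moved and 0 reversed, each against its own reported value. For summed promoter CPM, values labelled the same lay within the counting interval. The label was looser in bulk and was no measure of replicate spread. There, differences of 1, 2 and 14.5 peaks were labelled the same as the reported 6.5. The +RV count of 4 genes with a peak within 20 kb was labelled the same at 3 and at 6. With the promoter window widened to 2000 bases on both sides, 1 gene had a promoter peak in each +RV library. Leaving out 1 replicate gave 0 to 2 genes with a promoter peak in +RV and 0 to 1 in −RV. Within 50 kb, 10 genes had a peak in each +RV library and 10 in each −RV library, in place of 4 and 3 within 20 kb, where 79.7% and 74.7% of all genes had one. The difference of 6.5 peaks ran from 4 to 9 with 1 replicate left out, was 2 within 10 kb and 1 when each list was reduced to the same number of best-ranked peaks; with the replicate number as a block the difference of 6.5 had an exact paired p of 0.5, the smallest possible.

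The median log2 ratio of promoter CPM was -0.35 with a pseudocount of 5 CPM and -0.12 in barcodes with at least 1000 fragments; it was below 0 under all 12 alternatives. Summed promoter CPM was 164 in +RV and 267 in −RV over gene windows, 66.2 in +RV and 109 in −RV within 2000 bases, and 18.2 in +RV and 34.5 in −RV at principal starts only, an alternative added after seeing the data. In barcodes with at least 1000 fragments it was 41.5 in +RV and 58.7 in −RV. With fragments of 50 to 100 bp it was 25.1 in +RV and 43.2 in −RV. Leaving out each gene in turn gave 15.2 to 28.5 in +RV and 27.6 to 53.4 in −RV.

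The share of barcodes with 2 or more genes was 4.01% in +RV and 6.11% in −RV within 20 kb, 0.183% and 0.3325% in promoter windows, 0.666% and 1.04% for 3 or more genes, and 0.939% and 2.46% after thinning. With 1 or more of the other 9 genes, the median ratio was 10.1 in +RV and 11.7 in −RV, which turns the order of the reported 18.7 and 9.21. The causes were not tested. In −RV, single starts rest on 1 to 11 fragments.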
